A study of Homo sapiens with 6 samples.

Results

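NGFR, the VPS10-domain receptors SORCS2, SORT1 and SORL1, and the NGFR-binding adaptor MAGED1 were followed across 6 RNA-seq libraries. All 5 listed genes were found by symbol among the 15024 genes of the deposited table. They were selected on their measured levels in these same libraries, so their values here are a description and carry no test. The cells were MDA-MB-231, a human cell line from a triple-negative breast cancer, labelled null for MLL3, the histone methyltransferase whose gene is KMT2C. Every library came from cells kept for 14 days in 10 µM forskolin, which activates adenylyl cyclase and, through cAMP, protein kinase A. The cells were sorted by flow cytometry into CD44+CD104high cells (n = 3) and CD44+CD104-/low cells (n = 3, CD104low from here on), where CD104 is the integrin beta-4 protein. The series design names the first population hybrid EMT, between epithelial and mesenchymal, and the second mesenchymal, and asks how their gene expression compares. Both populations share the MLL3-null state and the forskolin, and wild-type or untreated cells were not analysed here. How the null cells were made, and whether they were 1 clone, was not stated in the labels. These call the libraries biological replicates without naming cultures, so errors measure only the spread between these samples.

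NGFR encodes p75NTR, a death-domain receptor of the tumour necrosis factor receptor superfamily that binds mature neurotrophins and their unprocessed proforms. Sortilin (SORT1) and SORCS2 are partners of p75NTR in the recognition of proneurotrophins, and VPS10 receptors also carry cargo between the Golgi, endosomes and the cell surface. SORL1 is best known for sorting the amyloid precursor protein, and MAGED1, also called NRAGE, binds the intracellular part of p75NTR. In the breast, p75NTR marks the basal and myoepithelial layer.

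RefSeq promoters were matched for 3 of the 5 genes: SORL1, MAGED1 and SORT1. NGFR and SORCS2 had no entry. The sequences set SORL1 and MAGED1, with higher values in CD104high, beside SORT1, whose level was nearly equal in the populations. Each runs 5′ to 3′ on the gene's strand of GRCh38.p14, from 250 bases before the RefSeq start to the base before the GENCODE 29 gene start. Capitals mark TGACG, the core of the cAMP response element bound by CREB, and GGGCGG, the GC box, each searched on both strands. SORL1 is at chr11:121452064-121452202 (plus strand), MAGED1 at chrX:51802826-51803006 (plus strand) and SORT1 at chr1:109397952-109398168 (minus strand).
SORL1: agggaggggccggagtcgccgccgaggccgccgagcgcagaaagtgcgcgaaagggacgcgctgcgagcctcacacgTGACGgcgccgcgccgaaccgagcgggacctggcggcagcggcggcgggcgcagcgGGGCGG
MAGED1: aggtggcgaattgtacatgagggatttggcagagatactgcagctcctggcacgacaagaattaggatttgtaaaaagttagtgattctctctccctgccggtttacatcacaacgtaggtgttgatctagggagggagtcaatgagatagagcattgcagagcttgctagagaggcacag
SORT1: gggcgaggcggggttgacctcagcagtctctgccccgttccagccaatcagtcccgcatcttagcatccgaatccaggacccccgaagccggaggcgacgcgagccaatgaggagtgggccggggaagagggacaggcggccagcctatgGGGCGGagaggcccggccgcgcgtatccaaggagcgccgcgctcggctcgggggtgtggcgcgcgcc

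Over the full 250 bases before the RefSeq start, TGACG occurred 1 time in SORL1 and 0 times in MAGED1 and SORT1, and was present in 21.7% of 27305 promoter windows of that length. GGGCGG occurred 2 times in SORL1, 3 times in SORT1 and 0 times in MAGED1, and was present in 42.3% of the windows. The full element TGACGTCA, which always holds a TGACG match, was in 1.77% of windows and in none of these 3. The AP-1 motif TGANTCA (6.60% of windows) and the interferon response element (3.07%) also had 0 matches in the 3 genes. The E-box CANNTG (62.2%) occurred 2 times in SORL1 and 0 times in MAGED1 and SORT1. The windows of SORL1 and SORT1 held 80.4% and 74.0% G and C, and that of MAGED1 48.8%. These are matches of letters and not measured binding.

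Levels are given as the deposited scaled read count, a number of reads divided by a size factor of its library. Recovered reads over the listed genes came to between 49791498 and 60069719 per library. KMT2C transcripts were present in all 6 libraries, at 3934, 3561 and 3952 in CD104high replicates 1, 2 and 3 and at 2095, 2611 and 2814 in those of CD104low, and a gene total does not show whether a null allele makes protein. ITGB4, the gene of the sorted protein, was at 14508 to 19435 in CD104high and 1333 to 2273 in CD104low, and CD44 was at 22069 to 28210 over all libraries. ESR1 and PGR, the hormone receptor genes a triple-negative line should lack, were not analysed here. Over all genes, limma on log2(value + 1) tested 14420 and called 43.4% of them at a Benjamini-Hochberg adjusted p under 0.05, with 21.8% higher and 21.6% lower in CD104high. The median log2 difference over all genes tested was 0.02, and it was -0.064 with a correction for transcript length and GC content that did not keep library means. In bulk RNA, fewer cells that express a gene and less of its RNA per cell cannot be told apart.

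**Figure D1:**
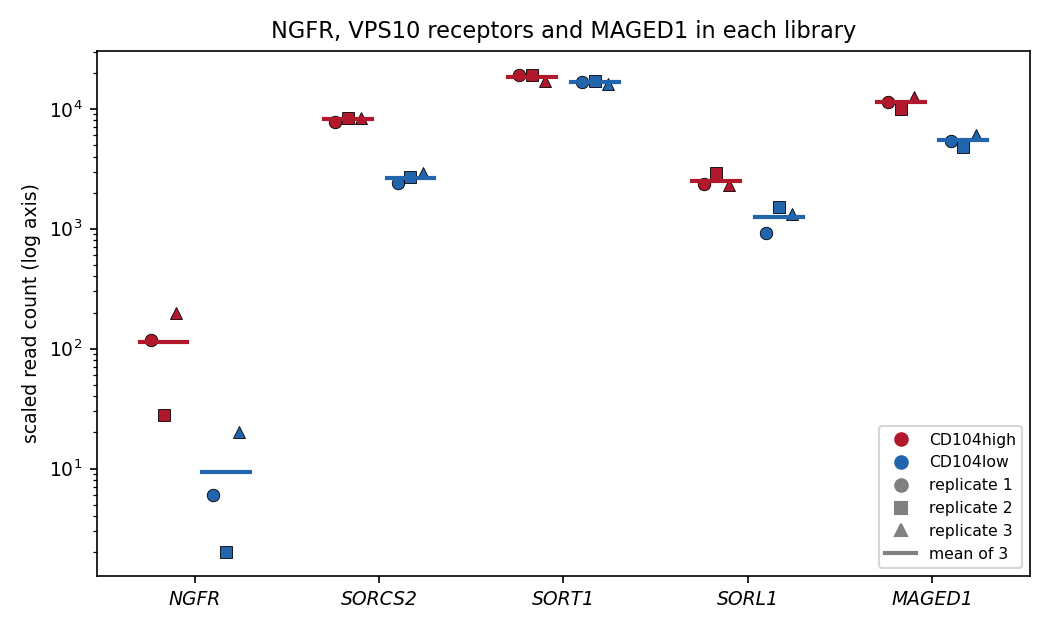
Scaled read count (log axis) of NGFR, SORCS2, SORT1, SORL1 and MAGED1 in each library of CD104high and CD104low, with the mean of 3 libraries. NGFR is the lowest and most scattered of the genes, while the SORT1 points lie between 16195 and 19296 in both populations.

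All 5 genes had higher values in every CD104high library than in any CD104low library, a separation found in that direction in 27.4% of the genes tested and in either direction in 54.3%. By limma, 4 of the 5 passed as higher (21.8% of all genes did) and 0 as lower, and SORT1 was the one left out. Among genes with an adjusted p in the authors' deposited table, 23.1% passed as higher. The median log2 difference of the 5 was 1.06. As the genes were proposed from this contrast, nothing is read from these counts.

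NGFR (ENSG00000064300.9, GRCh38 chromosome 17, 49495293 to 49515017, plus strand) was at 118, 28.2 and 197 in CD104high replicates 1, 2 and 3, and at 6.03, 2.02 and 20.2 in CD104low replicates 1, 2 and 3. Replicate 3 was the highest and replicate 2 the lowest in both populations, and the lowest CD104high library stood only 1.40-fold above the highest CD104low library. The means were 114 ± 84.3 and 9.42 ± 9.56 (SD, n = 3 each), a log2 difference of 3.53 (SE 0.83). These values rest on 129, 32 and 194 recovered reads in CD104high and 6, 2 and 18 in CD104low. The exact Poisson 95% interval was 21.9 to 45.2 reads for CD104high replicate 2 and 10.7 to 28.4 for CD104low replicate 3, and covers counting error only. Within a population, the highest library was 6.96 times the lowest in CD104high and 10.0 times in CD104low.

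The size of the NGFR difference depended on single libraries. It was 4.32 without CD104high replicate 2, 4.26 without CD104low replicate 3 and 2.85 without CD104low replicate 2. It was 2.91 on the log2(value + 5) scale. NGFR entered the test, which asked for a value of 10 or more in 3 or more libraries, with 4 libraries, 3 of them CD104high, and so mainly through the population where it was high. Only 2 libraries had an NGFR value of 50 or more.

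Other genes of the basal and myoepithelial breast layer were read beside NGFR. Of 9 such markers, 6 were in the table and 5 were tested, and 2, MYLK and TRIM29, were higher in CD104high by limma and 0 lower, or 40.0% called against 43.4% of all genes. Their summed level was 7081 to 10541 in CD104high and 2906 to 4424 in CD104low, most of it from MYLK, the myosin light chain kinase gene, at 7578 ± 1392 against 2847 ± 626 (SD, n = 3 each). OXTR, the oxytocin receptor of myoepithelial cells, was at 719, 455 and 1128 in CD104high and at 344, 238 and 563 in CD104low (log2 difference 1.00, SE 0.37, limma adjusted p = 0.0541). Its populations overlapped, and as with NGFR its replicate 3 was highest and its replicate 2 lowest in each. OXTR passed without CD104high replicate 2 (limma adjusted p = 0.0189) or CD104low replicate 3 (0.0209). TP63, the basal lineage transcription factor gene, was at 22.0, 22.1 and 28.4 in CD104high and 10.1, 1.01 and 15.7 in CD104low (log2 difference 1.80, limma adjusted p = 0.0752, or 0.0320 without CD104low replicate 3). By the authors' deposited adjusted p, TP63 passed (0.0322) and TRIM29 did not (0.117), while MYLK passed and OXTR did not, as with limma. ACTA2 did not pass, at 46.5 ± 6.69 against 29.6 ± 9.02 (SD, n = 3 each; limma adjusted p = 0.107). CNN1 was too low to be tested, at 7.32, 1.77 and 2.03 in CD104high and 6.03, 4.04 and 8.98 in CD104low. KRT5, KRT14 and KRT17 were not analysed here, and the part of such cells in the NGFR difference was not tested.

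NGFR is also expressed by Schwann cells and the neural crest. Of 8 markers of these, 4 were tested, and 2 were higher and 0 lower in CD104high by limma, or 50% called against 43.4% of all genes. MBP was higher by 0.45 on the log2 scale, and was at 0.11 with the length and GC correction that kept library means, where it did not pass (limma adjusted p = 0.339). ERBB3 was higher by 0.92 (SE 0.18). SOX10, a defining gene of this lineage, was at 6.18 to 24.3 in CD104high and 6.03 to 14.2 in CD104low, so its populations overlapped at low levels. FOXD3, a neural crest transcription factor gene, went the other way, at 38.7 ± 6.69 against 58.7 ± 12.2 (SD, n = 3 each; log2 difference -0.58, limma adjusted p = 0.106), with no overlap. The summed level of the list was 10755 to 12164 in CD104high and 8085 to 8992 in CD104low, nearly all of it MBP, while S100B and GAP43 were not analysed here. The part of such cells in the NGFR difference was not tested.

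SORCS2 (ENSG00000184985.16, chromosome 4, 7192538 to 7742836, plus strand), a VPS10 receptor that pairs with p75NTR, was at 7753, 8336 and 8458 in CD104high and 2401, 2688 and 2895 in CD104low. The populations were far apart and the replicates close, with coefficients of variation of 4.60% and 9.33%. The means were 8182 ± 377 and 2661 ± 248 (SD, n = 3 each), a log2 difference of 1.62 (SE 0.08) or 3.08-fold. The length and GC correction lowered it to 1.29, or to 1.21 where it left library means free. PSAPL1, a protein-coding gene on the opposite strand within SORCS2, read 38.2 ± 5.69 and 17.7 ± 6.45 (SD, n = 3 each). The strand setting of the counting was not stated in the labels, and these levels are small beside those of SORCS2.

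SORT1 (ENSG00000134243.12, chromosome 1, 109309568 to 109397951, minus strand), the sortilin gene, was at 19296, 19094 and 17220 in CD104high and 16763, 17153 and 16195 in CD104low. The populations barely separated, the lowest CD104high library being 1.00 times the highest CD104low library at this rounding. The means were 18537 ± 1145 and 16703 ± 482 (SD, n = 3 each), a log2 difference of 0.15 (SE 0.06). With the length and GC correction its sign turned, to -0.021, and to -0.10 where library means were left free. These values do not settle the direction of SORT1.

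SORL1 (ENSG00000137642.13, chromosome 11, 121452203 to 121633693, plus strand), the sorting receptor SorLA, was at 2340, 2915 and 2307 in CD104high and 919, 1523 and 1334 in CD104low. Every CD104high library was above every CD104low one, by a factor of at least 1.51. The log2 difference was 1.02 (SE 0.18), between means of 2520 ± 342 and 1259 ± 309 (SD, n = 3 each). It was 0.73 with the length and GC correction, or 0.65 where library means were left free.

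MAGED1 (ENSG00000179222.17, chromosome X, 51803007 to 51902357, plus strand), the intracellular partner of p75NTR, was at 11502, 9973 and 12474 in CD104high and 5420, 4823 and 6092 in CD104low. The populations did not overlap, and replicate 3 was highest and replicate 2 lowest in both, the order also seen in NGFR. The log2 difference was 1.06 (SE 0.11), between means of 11316 ± 1261 and 5445 ± 635 (SD, n = 3 each), or 2.08-fold.

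To set the genes against each other, scaled counts were divided by the length of the longest coding transcript in GENCODE 29, which need not be the one expressed. In CD104high the order per kilobase was MAGED1 at 3936 ± 439, SORT1 at 2638 ± 163, SORCS2 at 1330 ± 61.2, SORL1 at 231 ± 31.4 and NGFR at 33.5 ± 24.7 (SD, n = 3). In CD104low SORT1 stood first at 2377 ± 68.5, before MAGED1 at 1894 ± 221, SORCS2 at 433 ± 40.4, SORL1 at 115 ± 28.3 and NGFR at 2.76 ± 2.80 (SD, n = 3). Neighbours in each order did not overlap over their 3 libraries. The ratio of SORCS2 to NGFR per kilobase was 36.5, 164 and 23.9 in CD104high and 221, 738 and 79.5 in CD104low. NGFR was thus the least abundant of the 5 in every library on this scale.

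The make-up of the VPS10 receptor signal differed between the populations. SORCS2 held 29.9%, 31.2% and 34.1% of the summed SORT1, SORCS2 and SORL1 signal per kilobase in CD104high, and 13.6%, 14.5% and 16.2% in CD104low. The SORT1 share was 62.8% ± 2.18 in CD104high and 81.3% ± 1.97 in CD104low, and that of SORL1 was 5.50% ± 0.58 and 3.93% ± 0.88 (SD, n = 3 each). The sum itself was 4199 ± 152 and 2925 ± 82.3 per kilobase (SD, n = 3 each). The ratio of SORT1 to SORCS2 per kilobase was 1.99 ± 0.20 for CD104high libraries and 5.53 ± 0.61 for CD104low libraries (SD, n = 3 each). SORCS1 and SORCS3, the other receptors of this family, were not analysed here.

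**Figure D2:**
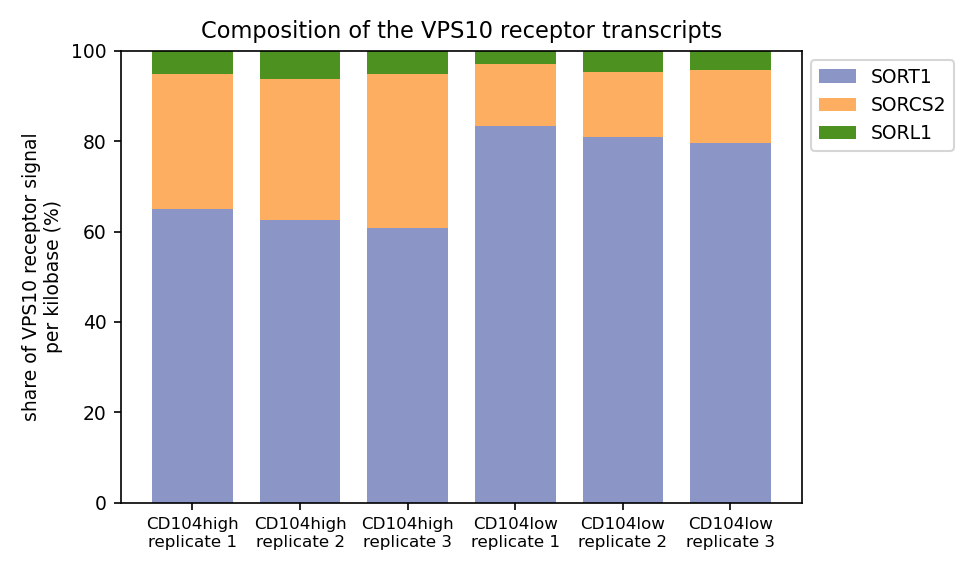
Share (%) of the summed SORT1, SORCS2 and SORL1 signal per kilobase of transcript in each of the 6 libraries. The SORCS2 share is 29.9% to 34.1% in CD104high and 13.6% to 16.2% in CD104low, with SORT1 taking most of the rest.

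The genes around these receptors were read from lists of their ligands, partners, enzymes, sorting machinery and cargoes. The lists held 104 tested genes of 135, of which 30 were higher and 15 lower in CD104high by limma, or 43.3% against 43.4% of all genes tested. Their median log2 difference was 0.09. With the length and GC correction that left library means free, the split was 21 higher and 34 lower. The share called was near that of all genes, and the lists are described one by one. Among all genes tested, 21.8% were higher and 21.6% lower.

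Among the neurotrophin ligand genes, BDNF, at 5007 ± 339 and 5655 ± 447 (SD, n = 3 each; log2 difference -0.17, limma adjusted p = 0.105), passed as lower only without CD104high replicate 3 (0.0494). NTF4, at 51.9 ± 18.1 and 29.8 ± 11.9 (SD, n = 3 each), did not pass. NTF3, NTRK2 and NTRK3 were not analysed here. Among 4 tested protease genes for proneurotrophins and other proproteins, 0 were higher and 0 lower by limma, with log2 differences of 0.27 for PLAT, 0.07 for FURIN, 0.60 for PCSK6 and 0.11 for PCSK7. FURIN turned negative with the length and GC correction and then passed as lower (-0.17, limma adjusted p = 0.0426). It also passed as lower where library means were left free (-0.25, limma adjusted p = 0.00794). PCSK7 (-0.13) turned negative with the correction but did not pass.

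The enzymes that cut p75NTR, a metalloprotease and then gamma-secretase, gave 4 higher and 1 lower among 8 tested genes. The share called was 62.5%, against 43.4% of all genes, and the median log2 difference was 0.24. ADAM10, a shedding protease gene, was at 24122 ± 1048 against 18524 ± 805 (SD, n = 3 each; log2 difference 0.38, limma adjusted p = 0.00184). NCSTN, for the gamma-secretase subunit nicastrin, was higher by 0.50 on the log2 scale (SE 0.06), and the subunit gene APH1B (0.54) was also higher. PSENEN, for another subunit, was lower, at 431 ± 28.2 against 583 ± 43.2 (SD, n = 3 each; log2 difference -0.44). Its call was lost without CD104low replicate 1 (limma adjusted p = 0.0547) or CD104low replicate 3 (0.0501).

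Co-receptors and adaptors of p75NTR gave 4 higher and 3 lower among 20 tested genes, with a median of 0.05. The share called was 35%, against 43.4% of all genes. RTN4R, the Nogo receptor gene, was at 402 ± 62.2 against 224 ± 6.89 (SD, n = 3 each; log2 difference 0.83, limma adjusted p = 0.00231). FSCN1, for the actin bundler fascin, was higher by 0.76. RIPK2, a kinase gene, was lower (log2 difference -0.40). It missed the threshold with the length and GC correction that kept library means (limma adjusted p = 0.0529), but not where they were left free. UBE3A, a ubiquitin ligase gene, was lower (-0.22) and lost its call without CD104high replicate 1 (limma adjusted p = 0.0737), CD104low replicate 1 (0.0684) or CD104low replicate 3 (0.0567).

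The list of Trk adaptors and effectors gave 4 higher and 2 lower among 15 (40% called against 43.4% of all genes), with a median of 0.11. In it the kinase gene ABL1 was higher by 0.55 and the exchange factor gene SOS1 by 0.46, while the adaptor gene GRB2 (-0.26) and the phosphatase gene PTPN11 (-0.22) were lower. ABL1 was at 0.16 (limma adjusted p = 0.0508) where the correction left library means free. PTPN11 missed the threshold without CD104high replicate 1 (limma adjusted p = 0.0542) or CD104low replicate 3 (0.0615).

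NGFR is a death-domain receptor, and 6 other receptors of that kind were tested, of which 2 were higher and 1 lower. The share called was 50%, against 43.4% of all genes, and the median was 0.12. TNFRSF21, or death receptor 6, was at 8199 ± 1014 against 5138 ± 823 (SD, n = 3 each; log2 difference 0.68, limma adjusted p = 0.00305). TNFRSF25 was higher by 0.86, and TNFRSF10A, a receptor for TRAIL, was lower (-0.54).

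**Figure D3:**
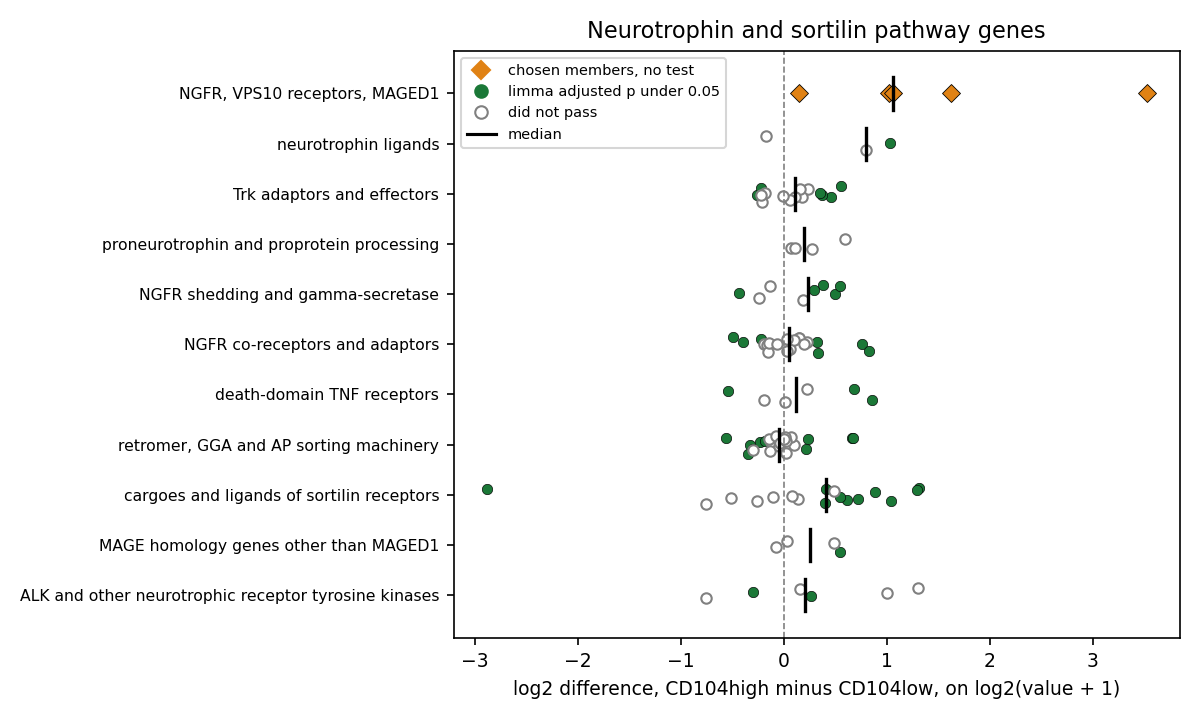
Log2 difference between CD104high and CD104low, on log2(value + 1), for the 5 chosen genes and for the genes of each list, with those past the limma threshold marked and the list medians shown. List medians run from -0.046 for the sorting machinery to 0.41 for the cargo list and 0.80 for the 3 ligand genes, and IL6R is the lowest point at -2.89.

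Cargoes and ligands of the sortilin receptors gave 9 higher and 1 lower among 17 tested genes, with a median log2 difference of 0.41. The share called was 58.8%, against 43.4% of all genes. CLU, for the chaperone clusterin, was at 4593 ± 573 against 1837 ± 66.3 (SD, n = 3 each; log2 difference 1.32, SE 0.09, limma adjusted p = 0.000202). SMPD1, for the lysosomal acid sphingomyelinase, was at 4668 ± 107 against 2526 ± 175 (SD, n = 3 each; log2 difference 0.89). Of the other higher cargo genes, CTSD for cathepsin D (1.29), GRN for progranulin (0.72), APP for the amyloid precursor (0.62) and PSAP for the saposin precursor (0.40) were chosen after their values were seen. IL6R, the interleukin-6 receptor gene, was at 16.5, 7.06 and 4.06 in CD104high and at 58.3, 65.7 and 71.9 in CD104low. Its populations did not overlap, and it was lower in CD104high (log2 difference -2.89, SE 0.45, limma adjusted p = 0.00157).

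The sorting machinery was made of the retromer, sorting nexins, GGA and AP-1 adaptors and mannose 6-phosphate receptors. It gave 4 higher and 6 lower among 23 tested genes (43.5% called against 43.4% of all genes), with a median of -0.046. AP1G2, an AP-1 subunit gene, was higher by 0.66. IGF2R, for the cation-independent mannose 6-phosphate receptor, was at 20256 ± 2367 against 12743 ± 1574 (SD, n = 3 each; log2 difference 0.67, limma adjusted p = 0.00184). M6PR, for the cation-dependent receptor, was lower (-0.33). The retromer subunit gene VPS29 was lower (-0.57, limma adjusted p = 0.00348). It was at -0.19 (0.0804) with the length and GC correction that kept library means, and kept its call where they were left free.

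Of 4 tested MAGE genes other than MAGED1, 1 was higher and 0 lower, or 25% called against 43.4% of all genes. MAGED2 was at 9640 ± 1479 against 6552 ± 518 (SD, n = 3 each; log2 difference 0.55, limma adjusted p = 0.00438). MAGEE1 did not pass (0.49, limma adjusted p = 0.0552), but did without CD104high replicate 2 (0.0214) or CD104low replicate 3 (0.0392). Among 6 tested receptor genes for other neurotrophic or neural ligands, EPHB2 (0.26) was higher and RYK (-0.30) lower. The share called was 33.3%, against 43.4% of all genes. EPHB2 was at -0.16, and did not pass, with the length and GC correction that kept library means. Where they were left free it was at -0.24 and passed as lower (limma adjusted p = 0.0430). Its call as higher was also lost without CD104high replicate 1 (limma adjusted p = 0.0739) or CD104low replicate 1 (0.0791).

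Profiles were then compared over the 6 libraries by the root mean square difference of log2(value + 1), after each gene was centred on its own mean. The points share their libraries and the split into populations, so r is a description. Out of 14134 genes, the nearest to NGFR were LDOC1 (0.49, r = 0.99), SEMA5A (0.59, r = 0.99), L1CAM (0.69, r = 0.99), MYCBPAP (0.79, r = 0.95) and ADGRF1 (0.81, r = 0.96). MYCBPAP was at 24.7, 15.9 and 26.4 in CD104high and only 1.01, 1.01 and 7.86 in CD104low. It entered the test through CD104high alone, and its profile is set near the floor. SEMA5A, a semaphorin gene, was at 395, 36.2 and 860 in CD104high and 16.1, 4.04 and 50.5 in CD104low. Its CD104high replicate 2 was below its CD104low replicate 3, so unlike in NGFR the populations overlapped. L1CAM, a neural adhesion molecule gene, was at 4005, 1667 and 6575 in CD104high and at 537, 390 and 968 in CD104low. Replicate 3 was highest and replicate 2 lowest in each, but L1CAM was picked for a profile like that of NGFR.

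SORCS2 lay closer to its neighbours, which were PPL (0.096), KIAA1217 (0.10), OAS2 (0.13), VWA7 (0.13) and EPSTI1 (0.13), each with r = 0.99. PPL, for the junction protein periplakin, was at 771 ± 17.2 against 244 ± 41.5 (SD, n = 3 each). The interferon-induced OAS2 was at 540 ± 15.6 against 191 ± 29.3 (SD, n = 3 each). The nearest profile was ZNF320 for SORT1 (0.018), SH3TC2-DT for SORL1 (0.067) and PTCH1, the Hedgehog receptor gene, for MAGED1 (0.079). Next came USP35 and NFE2L1 for SORT1, ERBB3 and PCDHB8 for SORL1, and P2RX6 and GLCCI1 for MAGED1.

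**Figure D4:**
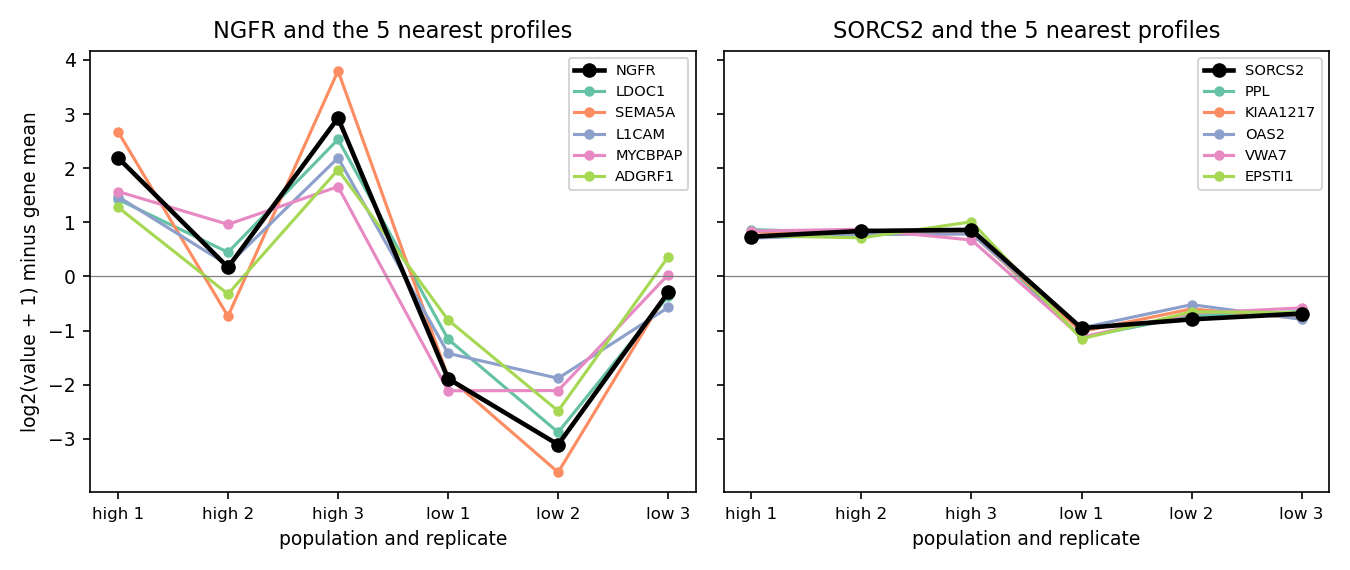
Centred log2(value + 1) profiles over the 6 libraries of NGFR and of SORCS2, each with its 5 nearest genes. The NGFR group swings between replicates within a population, with replicate 2 lowest in NGFR, while SORCS2 is nearly flat within each population.

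The differences of the 5 genes were recomputed under other processing. NGFR ranged from 2.85 to 4.32 when 1 library was left out, SORCS2 from 1.55 to 1.69, SORL1 from 0.81 to 1.18, MAGED1 from 0.97 to 1.14 and SORT1 from 0.12 to 0.20. The authors' deposited table gives log2 fold changes of 3.61 for NGFR, 1.62 for SORCS2, 1.06 for MAGED1, 1.00 for SORL1 and 0.15 for SORT1.

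**Figure D5:**
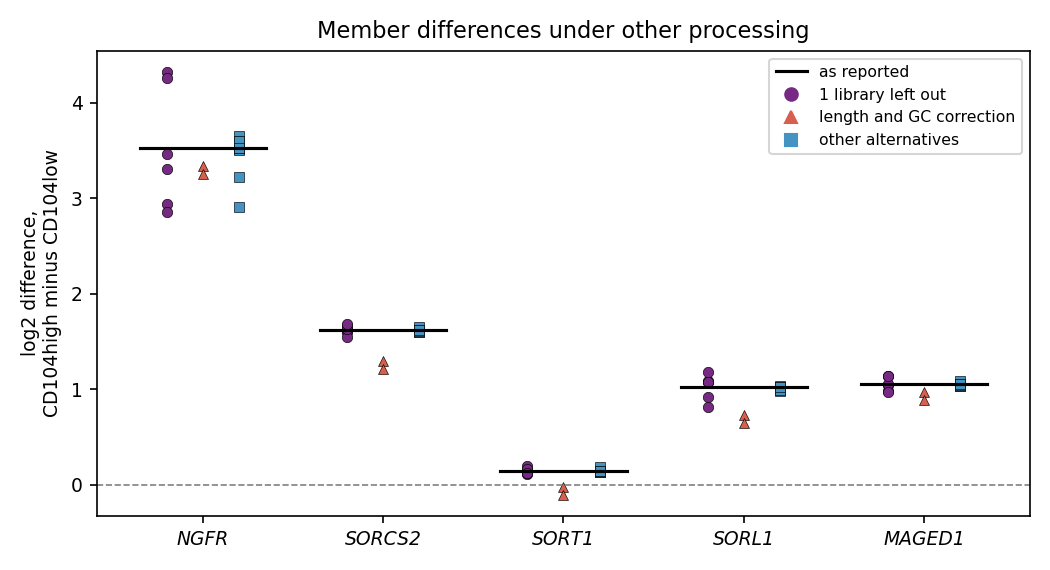
Log2 difference between CD104high and CD104low for each of the 5 genes as reported, with 1 library left out, with the length and GC correction and under the other alternatives. NGFR spreads from 2.85 to 4.32, and SORT1 falls below 0 with the correction.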

How the data were processed

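RNA-seq libraries of 6 sorted samples were used, 3 per population. The submitters' processing notes list FastQC, Salmon (1.3.0) and DESeq2, and the build GRCh38 (hg38); their order, the annotation release and the model are not stated there. Per the file headers, the authors deposited 1 table with a scaled read signal for each library, and a log2 fold change, its standard error, and raw and adjusted p-values. In each library 100% of the scaled values were whole multiples of 1 step within 0.01, and dividing by it recovered reads, which may be rounded estimates. No gene is listed at 0.

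From these values limma 3.58.1 (R 4.3.3, with intensity trend) was fitted on log2(value + 1) with population as its single term, for 14420 genes at 10 or more in 3 or more libraries, with Benjamini-Hochberg adjustment over all of them. Fold changes on this scale understate changes of low genes. The fit was checked on simulated data, where it often missed small changes, so a gene that did not pass is not shown to be unchanged. Lengths, GC content (mgcv 1.9.3 smooth) and positions came from GENCODE 29 and covered 99.8% of genes; the transcript choice and the promoter motifs were set after the files were seen. Members and lists were chosen with earlier results of these data known. From each list up to 4 genes past the threshold were named, 2 in each direction by smallest p; list members that did not pass only where at most 10 were tested; and the nearest profiles of each member. APH1B, PSAPL1 and single markers were also named after their values were seen. Some genes of the lists are not reported here. Alternatives were other scalings, filters and pseudocounts, edgeR 4.0.16, DESeq2 1.42.0, a replicate block, the length and GC correction, and leaving out each library.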

Additional observations from a re-analysis of the deposited data

How the results depend on the processing

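NGFR, SORCS2, SORL1 and MAGED1 kept a positive difference under every alternative that gave a value. NGFR had no value with a filter of 50 or more in 3 or more libraries, which it did not pass. With the length and GC correction SORCS2 was at 1.29 and SORT1 at -0.021. Where the correction left library means free, SORCS2 was at 1.21, SORL1 at 0.65 and SORT1 at -0.10, and 34 pathway genes were lower against 15. These 2 forms also turned EPHB2 (-0.16 and -0.24), FURIN (-0.17 and -0.25) and PCSK7 (-0.13 and -0.21). FURIN then passed as lower by limma in both forms, and EPHB2 only where library means were left free. The cause was not tested. Leaving out 1 library gave 4097 (without CD104low replicate 1) to 6390 changed genes against 6257, 24 to 34 pathway genes higher, and 9 (without CD104low replicate 3) to 20 lower. On recovered reads edgeR called 6267 genes and DESeq2 6613. Over the other genes recomputed, 933 values kept their direction and side of the threshold, 29 lost the call, 15 gained it and 6 turned.

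The replicate number was also fitted as a block. Deviations from the population means correlated at 0.084, 0.36 and 0.32 between libraries of the same number. Between libraries of different numbers they correlated at -0.32 to 0.013. Each library thus correlated best with its own number, a hint from the data only. The labels name no batch shared by libraries of the same number, so the numbers were not taken as pairs in the main fit. With the replicate block 7876 of the 14420 genes tested changed, and 40 pathway genes were higher and 22 lower. The block also gave calls to OXTR, TP63, MAGEE1, PLAT, NTF4 and ADGRF1 (limma adjusted p = 1.52e-05, 0.0196, 0.00160, 0.00274, 0.0276 and 6.99e-06). SORT1 passed with it too, so that all 5 chosen genes did. They were chosen from this contrast, so nothing is read from that count. The sign of SORT1 still turned with the length and GC correction. NGFR stands on 2 to 18 reads in CD104low, which limits the precision of its fold change.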

Other observations

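Any order of the replicates that was alike in both populations was found in 4014 of the 14420 genes tested (27.8%). The order of NGFR and MAGED1, with replicate 3 highest and replicate 2 lowest in each population, was found in 1629 of the 14420 genes tested (11.3%). SORCS2 had another order, alike in both populations, which 350 genes (2.43%) shared. The orders of SORT1 and SORL1 differed between the populations.

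Over all 7 marker lists 16 of 28 tested genes were higher in CD104high by limma and 0 lower, or 57.1% called, against 43.4% called and 21.8% higher among all genes tested. This total includes the 5 genes of the line and the sort, 3 of them higher, which are not markers of another cell type. ITGB4 among them is the gene of the sorted protein, so nothing is read from the total. Members of every list were thus among the higher genes. Of the neuron genes 1 of 5 tested, SYT1, was higher in CD104high by limma and 0 lower, at sums of 417 to 493 in CD104high and 381 to 431 in CD104low. Luminal breast genes gave 4 higher, KRT19, ERBB2, KRT18 and GATA3, and 0 lower among 5, at sums of 104246 to 121220 and 89578 to 92946. Both tested leukocyte genes, LAPTM5 and CD14, were higher, at sums of 679 to 936 and 320 to 404. Of 4 fibroblast genes 2 were tested, PDGFRB and LUM, and both were higher, at list sums of 1874 to 3096 and 908 to 1435. LUM was uneven, at 98.9, 97.1 and 359 in CD104high and 56.3, 40.4 and 51.7 in CD104low. DCN (2.01 to 11.2 over all libraries) and PDGFRA (2.01 to 6.08) were too low to be tested. Of the 5 genes of the line and the sort, ITGB4, KMT2C and EGFR were higher, while VIM and CD44 did not pass. STMN2, PTPRC, CD3E and FOXA1 were not analysed here. The part of such cells in the differences of NGFR and its partners was not tested.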
